A study of Homo sapiens with 14 samples.

Results

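The 10 genes described here are the transcription factor genes ZEB1, ZEB2, SNAI1, SNAI2, TWIST1 and TCF4, the filament gene VIM, the matrix gene FN1, and the epithelial factor genes GRHL2 and OVOL1. The group is defined by gene symbols. All 10 were on the array, among 18372 genes with a probe set annotated to exactly 1 symbol. ZEB2 had 2 such probe sets and was read from the brighter one, and every other gene of the group had 1. RefSeq (GRCh38.p14) places VIM and ZEB1 on chromosome 10, ZEB2 and FN1 on chromosome 2, SNAI2 and GRHL2 on chromosome 8, OVOL1 on chromosome 11, TCF4 on chromosome 18, SNAI1 on chromosome 20 and TWIST1 on chromosome 7.

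The study asked how expression differs between human prostate cancer cells that metastasise to bone and cells that do not. RNA of 7 cell lines was hybridised to 14 single-colour arrays, 2 for each line, which came from separate passages. PC3-ML, labelled bone metastatic, and PC3-N, labelled non-bone metastatic, both derive from PC3, a line grown from a bone metastasis of prostate cancer. PC3-N(PDGFRα) is PC3-N overexpressing the PDGF receptor alpha and is labelled bone metastatic, whereas DU-145 and DU-145 (PDGFRα), its receptor-overexpressing derivative, are both labelled non-bone metastatic. DU-145 is a line grown from a brain metastasis. PC3-ML (Clone 1) and PC3-ML (Clone 3), called Clone 1 and Clone 3 here, were each grown from a single PC3-ML cell and are labelled bone metastatic. Each is therefore 1 clone, and no source used here gives the promoter that drives the receptor. The medium was DMEM for every line, with 10% serum and 0.1% gentamicin.

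In an epithelial to mesenchymal transition, cells lose the junctions of an epithelium and gain the filaments, matrix and motility of mesenchymal cells. ZEB1, ZEB2, SNAI1 and SNAI2 are zinc finger proteins that bind E-boxes and repress epithelial genes such as CDH1, which encodes E-cadherin. TWIST1 and TCF4 are basic helix-loop-helix proteins. TCF4 here is the E protein also called E2-2, not the Wnt effector encoded by TCF7L2. GRHL2 and OVOL1 act on the other side: they maintain epithelial genes and restrain ZEB1. The miR-200 microRNAs repress ZEB1 and ZEB2, and ZEB1 in turn represses their genes. Vimentin, the intermediate filament of mesenchymal cells, and fibronectin, encoded by FN1, are among the most used markers of the mesenchymal state.

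The labels were checked first. PDGFRA, the overexpressed gene, measured 817 and 850.4 in PC3-N(PDGFRα) against 103 and 109 in PC3-N, and 129.6 and 92.2 in DU-145 (PDGFRα) against 28.2 and 25.5 in DU-145. CTNNA1, which PC3 cells have lost by deletion, measured 22.3 to 24.9 on the 10 arrays of PC3 lines and 138 to 282 on the 4 of DU-145 lines. Intensities ran from 18.5 to 8654 over all probe sets, array medians lay between 29.9 and 31.6, and both arrays of a line correlated at r = 0.989 to 0.996 across genes. Values near 20 lie at a floor where changes are compressed. Of the epithelial markers EPCAM, KRT8, KRT18, KRT19 and CDH1, the summed intensity was 1105 to 1305 in PC3-ML, 1358 to 1406 in Clone 3, 1532 to 1735 in PC3-N(PDGFRα), 1651 to 1916 in PC3-N, 2111 to 2227 in DU-145 (PDGFRα), 2849 to 3139 in DU-145 and 2923 to 2999 in Clone 1. The luminal markers measured, KLK3 (24.2 to 29.6) and KLK2 (27.3 to 33.9), stood near the array median or below it in every line.

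Called here means a Benjamini-Hochberg adjusted p under 0.05 over all 18372 genes in limma. Pairs of lines were tested in 1 fit over the 14 arrays. The arrays of a line come from passages of 1 culture, so the spread behind these p-values is that of passages and not that of independently derived lines.

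Sequences are given for the members that were called in a comparison and have an upstream entry in the RefSeq table (GRCh38.p14), and for the microRNAs that target ZEB1 and ZEB2. Upstream entries were matched for 5 of the 10 members: ZEB1, ZEB2, TCF4, VIM and FN1. The window is the 250 bases before the annotated start of the gene, on the strand of the gene, so other starts are not covered. It is chr10:31318167-31318416 (plus strand) for ZEB1, chr18:55635958-55636207 (minus strand) for TCF4 and chr2:215436069-215436318 (minus strand) for FN1. Capitals mark CACCTG or its complement CAGGTG, the E-box preferred by ZEB and SNAI proteins.
ZEB1 upstream: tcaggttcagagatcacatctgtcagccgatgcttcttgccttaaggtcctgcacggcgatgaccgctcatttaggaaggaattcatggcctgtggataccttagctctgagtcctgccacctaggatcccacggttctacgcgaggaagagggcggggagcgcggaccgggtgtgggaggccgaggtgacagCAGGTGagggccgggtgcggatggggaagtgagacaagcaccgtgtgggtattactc
TCF4 upstream: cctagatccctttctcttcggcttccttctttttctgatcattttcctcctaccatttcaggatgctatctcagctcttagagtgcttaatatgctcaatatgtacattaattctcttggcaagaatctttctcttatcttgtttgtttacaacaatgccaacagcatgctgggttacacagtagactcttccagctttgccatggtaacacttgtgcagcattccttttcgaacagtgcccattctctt
FN1 upstream: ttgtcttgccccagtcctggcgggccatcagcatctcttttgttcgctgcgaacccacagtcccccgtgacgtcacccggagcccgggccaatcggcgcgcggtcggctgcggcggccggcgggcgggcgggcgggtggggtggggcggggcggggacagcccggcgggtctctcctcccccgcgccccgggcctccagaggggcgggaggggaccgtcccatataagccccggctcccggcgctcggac

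Of the 5 windows, only that of ZEB1 held CACCTG on either strand, once, starting 57 bases before the start of the gene. By comparison, 17.5% of 35116 RefSeq upstream windows of the same length held it. The broader E-box CANNTG, which includes CACCTG, occurred in 3 of the 5 windows (ZEB1, ZEB2 and TCF4) and in 61.8% of all windows. The GRHL motif AACCGGTT (0.117% of all windows) and the OVOL motif CCGTTA (2.45%) were in none of the 5. The FN1 window was 76.4% G or C and the TCF4 window 40.8%.

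The microRNAs of the miR-200 family are shown because they pair with ZEB1 and ZEB2 transcripts through their seed (bases 2 to 8, in capitals). The first pair below shares the seed AACACUG and the other 3 share AAUACUG, a difference at a single base of the seed.
hsa-miR-200a-3p: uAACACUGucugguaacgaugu
hsa-miR-141-3p: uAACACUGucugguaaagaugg
hsa-miR-200b-3p: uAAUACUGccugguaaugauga
hsa-miR-200c-3p: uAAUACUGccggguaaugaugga
hsa-miR-429: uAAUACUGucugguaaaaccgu
Probe sets for their genes stood near the floor: 20.3 to 23.3 for MIR200A, 25.5 to 29.7 for MIR200B, 23.5 to 31.9 for MIR429, 20.8 to 22.7 for MIR200C and 20.5 to 22.5 for MIR141 over the 14 arrays. None of the 5 was called in any of the 9 comparisons. Such probe sets see the precursor, and the mature microRNA was not measured.

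Among the 6 transcription factor genes of the transition, ZEB1, SNAI2 and TWIST1 were above the array median on all 14 arrays and TCF4 on 10. ZEB2 (24.5 to 28.1) and SNAI1 (23.0 to 26.1) were below it on all 14. So were the epithelial factors GRHL2 (20.9 to 24.5) and OVOL1 (23.2 to 27.3). None of these 4 genes was called in any comparison, and the lines' means spanned 0.06 (SNAI1) to 0.15 (ZEB2) on the log2 scale. For genes so near the floor the array bounds no change below it.

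ZEB1, the repressor that the miR-200 seeds above target, measured 92.3 and 85.9 in PC3-ML, 79.3 and 107 in PC3-N, and 95.1 and 95.4 in PC3-N(PDGFRα). The DU-145 parent was at 69.1 and 71.3 and DU-145 (PDGFRα) at 86.3 and 85.6, Clone 1 at 61.0 and 63.7, and Clone 3 at 74.6 and 75.5. The line means, in falling order, were those of PC3-N(PDGFRα), PC3-N, PC3-ML, DU-145 (PDGFRα), Clone 3, DU-145 and Clone 1, and PC3 and DU-145 lines were interleaved. The PC3-N arrays alone enclosed those of PC3-N(PDGFRα), PC3-ML and DU-145 (PDGFRα). Clone 1 was below every other line on both arrays.

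SNAI2, which encodes the repressor Slug, split the lines by origin. It measured 193 and 161 in PC3-ML, 94.2 and 208 in PC3-N, 118 and 132 in PC3-N(PDGFRα), 110.3 and 98.3 in Clone 1, and 127 and 109 in Clone 3. It measured 32.9 and 33.5 in DU-145, and 34.0 and 46.0 in DU-145 (PDGFRα). All 10 PC3 arrays lay above all 4 DU-145 arrays. Among the PC3 lines the order was not resolved, since the PC3-N arrays, at 94.2 and 208, enclosed all the others.

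TWIST1 varied little. It measured 76.7 and 73.6 in PC3-ML, 74.6 and 71.2 in PC3-N, 78.2 and 60.7 in PC3-N(PDGFRα), 59.9 and 60.01 in Clone 1, and 71.2 and 78.2 in Clone 3. The DU-145 arrays were at 66.0 and 50.1 and those of DU-145 (PDGFRα) at 55.9 and 52.8. The line means spanned 0.47 on the log2 scale, and the mean of Clone 1 lay between those of the other PC3 lines and the DU-145 lines.

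TCF4 gave the clearest order of lines. It measured 57.7 and 51.2 in PC3-N(PDGFRα), 54.5 and 48.4 in Clone 3, 40.9 and 47.6 in PC3-ML, and 42.3 and 41.1 in Clone 1. PC3-N followed at 33.0 and 34.5, then DU-145 (PDGFRα) at 26.2 and 25.9 and DU-145 at 24.4 and 26.2. Every array of a line labelled bone metastatic was above every PC3-N array, and every PC3-N array above every DU-145 array. Within the bone-metastatic lines PC3-N(PDGFRα) overlapped Clone 3 and PC3-ML overlapped Clone 1, and the DU-145 lines overlapped each other.

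VIM was bright in all lines and close to flat. It measured 299 and 305 in PC3-ML, 333 and 317 in PC3-N, 286 and 271 in PC3-N(PDGFRα), 331 and 344 in Clone 1, and 376 and 347 in Clone 3. In DU-145 it measured 304 and 321, and in DU-145 (PDGFRα) 262 and 359.6, a span that held every other VIM value except that of Clone 3 replicate 1. The line means spanned 0.38 on the log2 scale, and VIM was called in none of the 9 comparisons.

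FN1 had the widest range of the group. It measured 452 and 485 in Clone 3, 405 and 232 in PC3-N, 244 and 304 in Clone 1, 153 and 209 in PC3-ML, and 185 and 158 in PC3-N(PDGFRα). In DU-145 it measured 30.7 and 32.5, and in DU-145 (PDGFRα) 31.2 and 36.9. The PC3 and DU-145 arrays were far apart, and Clone 3 was above every other array. The PC3-N passages, which differed most, enclosed those of Clone 1, and the PC3-ML passages enclosed those of PC3-N(PDGFRα).

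**Figure D1:**
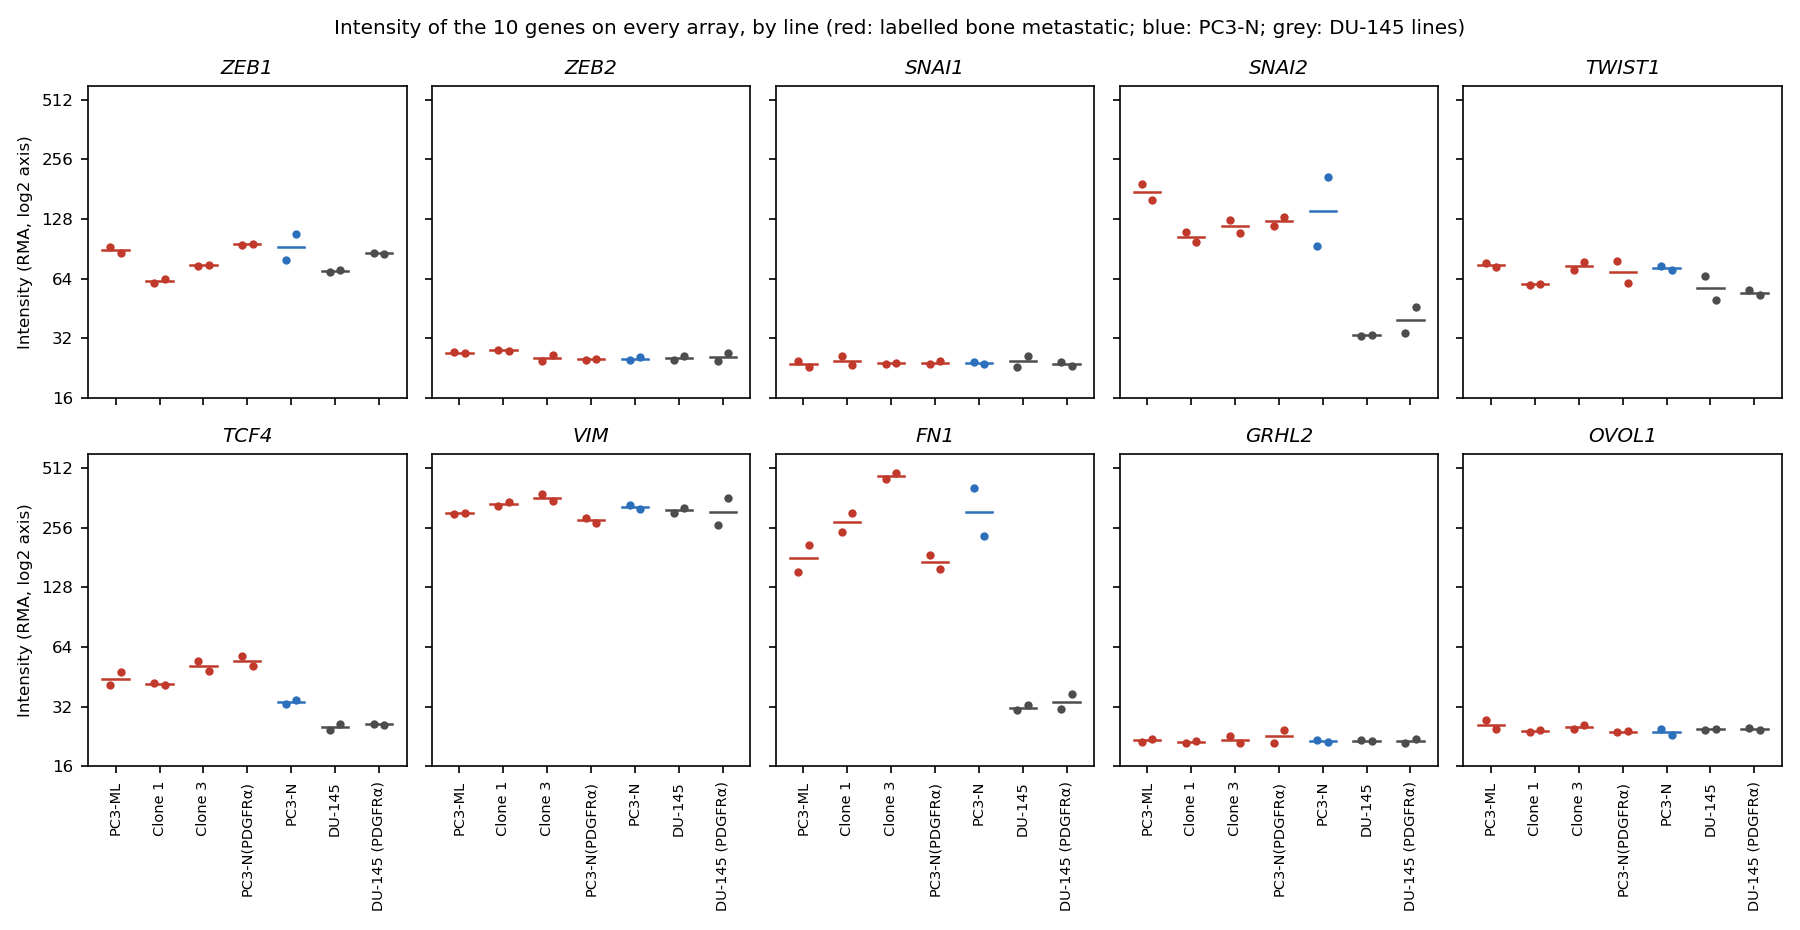
Intensity of each of the 10 genes on every array (log2 axis), by line, with the line mean as a bar; red marks lines labelled bone metastatic, blue PC3-N and grey the DU-145 lines. SNAI2 and FN1 drop in the DU-145 lines, TCF4 is highest in the 4 red lines, VIM is level, and ZEB2, SNAI1, GRHL2 and OVOL1 lie near the floor in all lines.

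The pooled SD between passages, on the log2 scale, was 0.35 for SNAI2, 0.28 for FN1, 0.15 for TWIST1, 0.13 for VIM, 0.12 for ZEB1 and 0.09 for TCF4, against a median of 0.09 over all genes. Line means spanned 3.89 for FN1, 2.41 for SNAI2, 1.10 for TCF4 and 0.61 for ZEB1. Thus 3 of the 10 members reached a span of 1, as did 11.8% of all genes. SNAI2 and FN1 were the noisiest of the group, and for both the PC3-N passages were the furthest apart: the passage with less SNAI2 had more FN1.

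PC3 lines and DU-145 lines differed most. SNAI2, TCF4 and FN1 were higher in the 5 PC3 lines than in both DU-145 lines, by 1.85, 0.79 and 2.99 on the log2 scale, which are 3.6-fold, 1.73-fold and 7.95-fold. In the DU-145 lines TCF4 (24.4 to 26.2) was near the floor and FN1 (30.7 to 36.9) near the array median. Both folds are therefore low estimates. SNAI2 (32.9 to 46.0) stood somewhat above the array median there, so its fold may be a low estimate too. ZEB1 (0.07) and VIM (0.05) were at nearly the same mean in both, with 95% intervals of -0.36 to 0.51 and -0.19 to 0.28. Thus 3 of 10 members were called, all 3 higher, where 17.6% of all genes were called.

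The test used the 7 line means. SNAI2 had an SE of 0.20 and an adjusted p of 0.00204 in limma, TCF4 an SE of 0.18 and an adjusted p of 0.0284, and FN1 an SE of 0.39 and an adjusted p of 0.00422. TWIST1 differed by 0.33 (SE 0.09), with an adjusted p of 0.0608 in limma. It was called without Clone 1 (0.00636) and without DU-145 replicate 1 (0.0259), both in limma. The 14-array fit in limma also called it (0.00827, or 0.00572 with the replicate block). That fit uses the spread between passages, not between lines, and called 7137 of 18372 genes. All 4 were higher on every PC3 array than on every DU-145 array except TWIST1, whose arrays overlapped, and 10.1% of all genes showed such a complete separation. The exact two-sided permutation test over lines gave 0.0952 for each of the 4, the smallest value that 5 lines against 2 allow, and 0.381 after adjustment over 20 tests. The lines of each origin are related, so they are not independent samples of PC3 or DU-145. The TCF4 call was lost without the line PC3-ML (adjusted p = 0.0578), DU-145 (0.136) or DU-145 (PDGFRα) (0.154), in limma.

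E-cadherin, the classical target of the repressors, ran the other way. CDH1 measured 25.0 to 33.9 on the PC3 arrays, 250.05 and 81.8 in DU-145, and 43.6 and 63.3 in DU-145 (PDGFRα). It was lower in PC3 lines by a log2 change of -1.56 (SE 0.34, adjusted p = 0.0263 in limma), a call lost without DU-145 replicate 2 (adjusted p = 0.0543) and under 4 other omissions. Its level in the PC3 lines was near the array median, so the size is a low estimate.

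Of the 30 measured epithelial targets of ZEB, SNAI and GRHL proteins, 3 rose and 4 fell in PC3 lines, and 23 were not called (median change -0.04, against -0.01 over all genes). The largest of those called were MAL2, a membrane trafficking protein of polarised epithelia (1.99), CDH1, the simple keratin KRT19 (0.68) and the claudin CLDN7 (-0.65). The KRT19 call was lost under 11 of 29 alternatives. EPCAM (-0.97, adjusted p = 0.257 in limma) and KRT8 (-0.96, adjusted p = 0.0840) differed by more but were not called. Epithelial transcription factors gave 3 rises and 1 fall of 12 measured (median 0.13), with TFAP2C at 0.90, KLF4 at 0.75, TFAP2A at -0.59 and FOXA1 at 0.29, a call lost under 18 of 29 alternatives. Called epithelial genes thus lay in both directions in this contrast.

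Of 24 mesenchymal markers, 6 rose and 3 fell in PC3 lines (median -0.02). The mesenchymal cadherin genes were far higher. CDH11 measured 704 to 921 on PC3 arrays and 26.7 to 28.0 on DU-145 arrays, a log2 change of 4.85 (SE 0.08, adjusted p = 1.9e-06 in limma). CDH2, or N-cadherin, measured 405 to 635 against 23.0 to 27.6, a change of 4.34 (SE 0.13, adjusted p = 1.5e-05 in limma). The secreted glycoprotein gene FSTL1 rose by 3.39, whereas TGFBI, which encodes a matrix protein induced by TGF-beta, fell by 2.22. Both cadherin genes stood at the floor in the DU-145 lines, so their folds are low estimates.

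Other regulators of the transition gave 4 rises and 3 falls of 17 measured (median -0.05). The TGF-beta signal transducer SMAD3 rose by 0.82 and the receptor gene TGFBR2 by 0.74, the ligand gene TGFB2 fell by 0.52, and ID2, an inhibitor of basic helix-loop-helix proteins, rose by 0.52. Of 29 alternatives, 14 ended the ID2 call, 13 that of TGFBR2, 7 that of TGFB2 and 2 that of SMAD3. Among 16 intermediate filament genes other than VIM, 2 rose and 2 fell (median -0.05): NEFL (3.29), which encodes the light neurofilament, NEFM (-2.33), which encodes the medium one, NES (0.65), which encodes nestin, and INA (-0.23). The neurofilament pair thus moved in opposite directions, and VIM was not called.

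Markers of other cells were set beside these values. None of the 7 fibroblast markers was called, and their summed intensity was 195 to 216 on all arrays. None of the 5 leukocyte or 3 muscle markers measured was called in this contrast. Of 4 endothelial markers PECAM1 was called, higher in PC3 lines by 1.44, with CDH5, VWF and TEK at 21.8 to 25.5 on all arrays. Its part in the results was not tested.

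**Figure D2:**
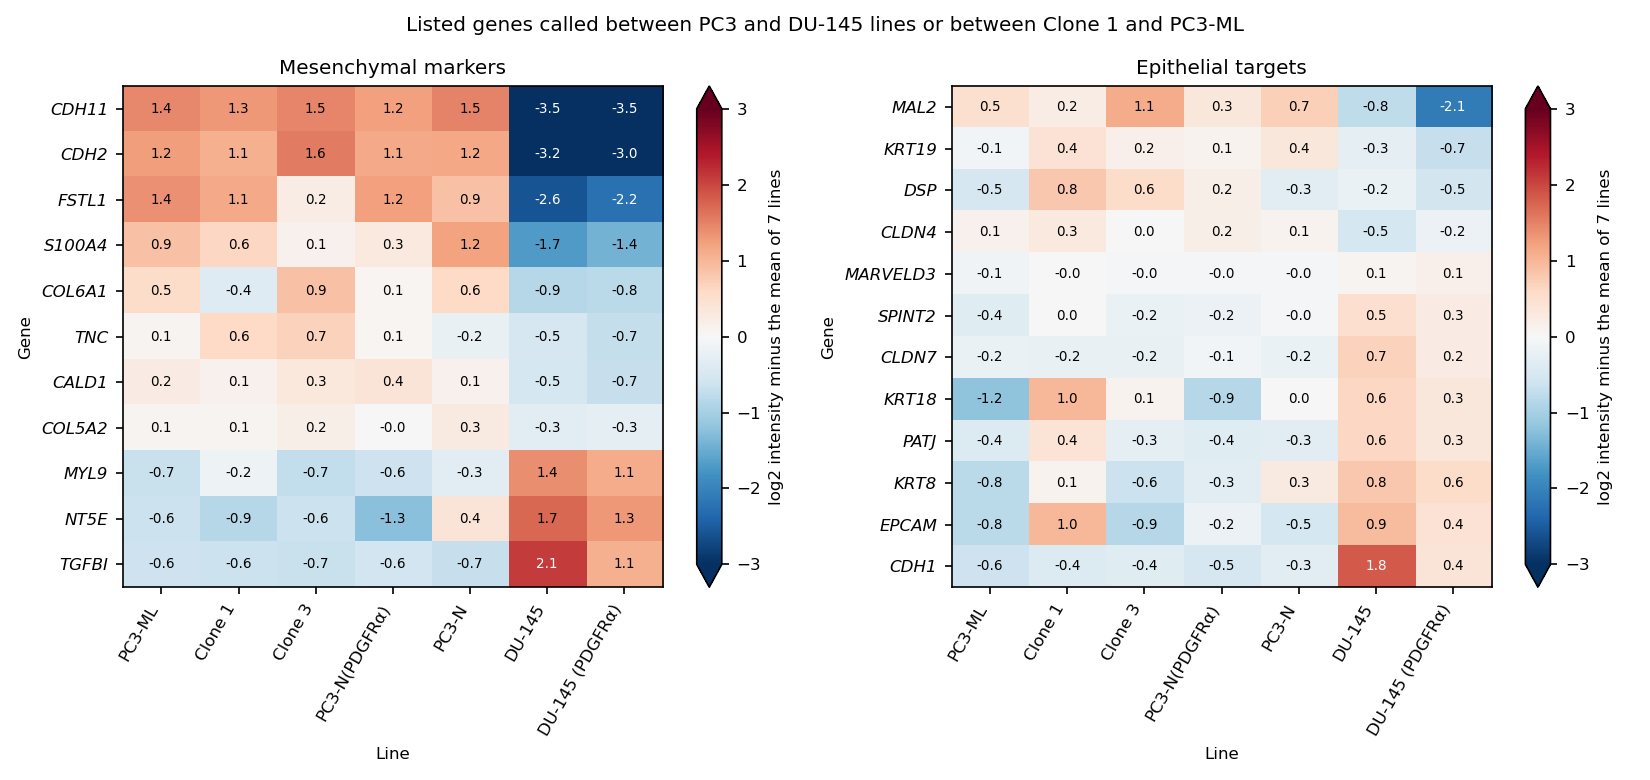
Line means of log2 intensity minus the mean of the 7 lines, for mesenchymal markers (left) and epithelial targets (right) called between PC3 and DU-145 lines or between Clone 1 and PC3-ML; each cell prints its value, and the colour scale stops at 3. CDH11, CDH2 and FSTL1 are low in both DU-145 lines, TGFBI and CDH1 are high there, and EPCAM, KRT18 and DSP are high in Clone 1.

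The label of bone metastasis was compared on the same line means, 4 lines against 3. No member was called, and limma called 0% of all genes; at an unadjusted p under 0.05 it gave 2250 genes, of which 1 was a member, TCF4. TCF4 was 0.76 higher on the log2 scale in the bone-metastatic lines (SE 0.14, adjusted p = 0.405 in limma), and its 8 arrays there, at 40.9 or more, were all above the other 6, at 34.5 or less. It was the single member with every bone-metastatic array higher, as were 0.8% of all genes. The exact two-sided permutation p over lines was 0.0571, the smallest that 4 lines against 3 allow, and 0.381 after adjustment over 20 tests.

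Both DU-145 lines are labelled non-bone metastatic, so the label and the origin of the line cannot be told apart in part of this contrast. SNAI2 (1.17, adjusted p = 0.413) and FN1 (1.86, adjusted p = 0.422) were higher in the bone-metastatic lines by limma's estimate. Within the PC3 lines alone, an alternative chosen after the data were seen, the 4 bone-metastatic lines against PC3-N gave -0.13 for SNAI2 and -0.30 for FN1, neither called. TCF4 kept a difference of 0.50 there, with an adjusted p of 0.00679 in limma, against the spread between passages and a single reference line. That setting called 678 of 18372 genes and 1 of the 10 members.

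PC3-ML against PC3-N is the comparison of sublines with different labels and the same origin. No member was called (0.348% of all genes were, and 2 members had an unadjusted p under 0.05 in limma, as had 10.5% of all genes). TCF4 was at 40.9 and 47.6 in PC3-ML against 33.0 and 34.5, a log2 difference of 0.39 (SE 0.09, adjusted p = 0.131 in limma). FN1 was at 153 and 209 against 405 and 232, a difference of -0.78 (SE 0.24, adjusted p = 0.250). Without PC3-N replicate 2, FN1 reached -1.18 with an adjusted p of 0.0335 in limma. The differences in ZEB1 (-0.05), TWIST1 (0.04) and VIM (-0.11) were smaller than their standard errors. Among the listed genes KRT8, a simple epithelial keratin, fell by 1.08 (SE 0.16, adjusted p = 0.0308 in limma), a call lost without either PC3-ML array or without PC3-N replicate 1.

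TCF4 was higher in PC3-N overexpressing PDGFRα than in PC3-N. Its arrays were at 57.7 and 51.2 against 33.0 and 34.5 in PC3-N, an increase of 0.69 on the log2 scale, or 1.61-fold (SE 0.09, adjusted p = 0.00665 in limma). It was the 1 member called, where 2.2% of all genes were. FN1, at 185 and 158 against 405 and 232, differed by -0.84 (SE 0.24, adjusted p = 0.118). The other members differed by 0.22 or less in size (VIM, -0.22). The TCF4 call was lost without PC3-N(PDGFRα) replicate 1 (0.60, adjusted p = 0.0600), and without PC3-N replicate 2 FN1 was called as well (-1.25, adjusted p = 0.0162), both in limma. PC3-N is also the reference of the PC3-ML comparison, so these values share their control arrays.

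Of the listed genes, DSP rose and NT5E fell in that line. DSP, which encodes the desmosome protein desmoplakin, was at 163 and 153 against 116 and 107 (0.50, adjusted p = 0.0338 in limma). NT5E, the ectonucleotidase CD73, was at 81.0 and 71.7 against 317 and 180 (-1.65, adjusted p = 0.0112). The DSP call was lost without any 1 of the 4 arrays, and the NT5E call without either PC3-N(PDGFRα) array. DSP is an epithelial gene and NT5E a mesenchymal marker, and no other gene of the epithelial (30 measured) or mesenchymal (24) lists was called. PECAM1 was at 105 and 67.1 against 55.0 and 44.0 and was not called.

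In DU-145 no member was called with PDGFRα overexpression, where 0.31% of all genes were, and 1 member, ZEB1, had an unadjusted p under 0.05 in limma, as had 13% of all genes. ZEB1 was at 86.3 and 85.6 against 69.1 and 71.3, a difference of 0.29 (SE 0.11, adjusted p = 0.299 in limma). TCF4 differed by 0.04, with a 95% interval of -0.16 to 0.24, at a level near the floor. Of the listed genes, MAL2 fell by 1.34 and TGFBI by 1.03; the MAL2 call was lost with the replicate block, with a pseudocount of 16, and without DU-145 replicate 1 or either DU-145 (PDGFRα) array. TGFBI was at 80.2 and 95.4 against 186 and 171.

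The differences between each overexpressing line and its parent were compared directly between PC3-N and DU-145. PDGFRA reached 817 and 850.4 in PC3-N(PDGFRα) but 129.6 and 92.2 in DU-145 (PDGFRα), and each is a single derived line. Receptor level, background and derivation therefore cannot be told apart here. The TCF4 difference was 0.64 larger in PC3-N (SE 0.13, adjusted p = 0.0651 in limma), short of the threshold. TCF4 stood near the floor, at 24.4 to 26.2, in both DU-145 lines, where changes are compressed. No member was called, where 0.533% of all genes were. At an unadjusted p under 0.05 in limma there were 2 members and 12.4% of all genes. Other settings moved TCF4 across the threshold, to an adjusted p in limma of 0.0465 after quantile normalization and of 0.0467 with a variance trend and robust moderation. The difference for FN1 was -0.95 (SE 0.34, adjusted p = 0.280). Of the listed genes, DSP (0.85) and TGFBI (1.13) were called. TGFBI stood near the floor, at 25.4 to 28.8, in PC3-N and PC3-N(PDGFRα), where a fall could not be seen, so its value does not show a different receptor effect. The DSP call was lost with the replicate block and without any 1 array other than DU-145 replicate 2.

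**Figure D3:**
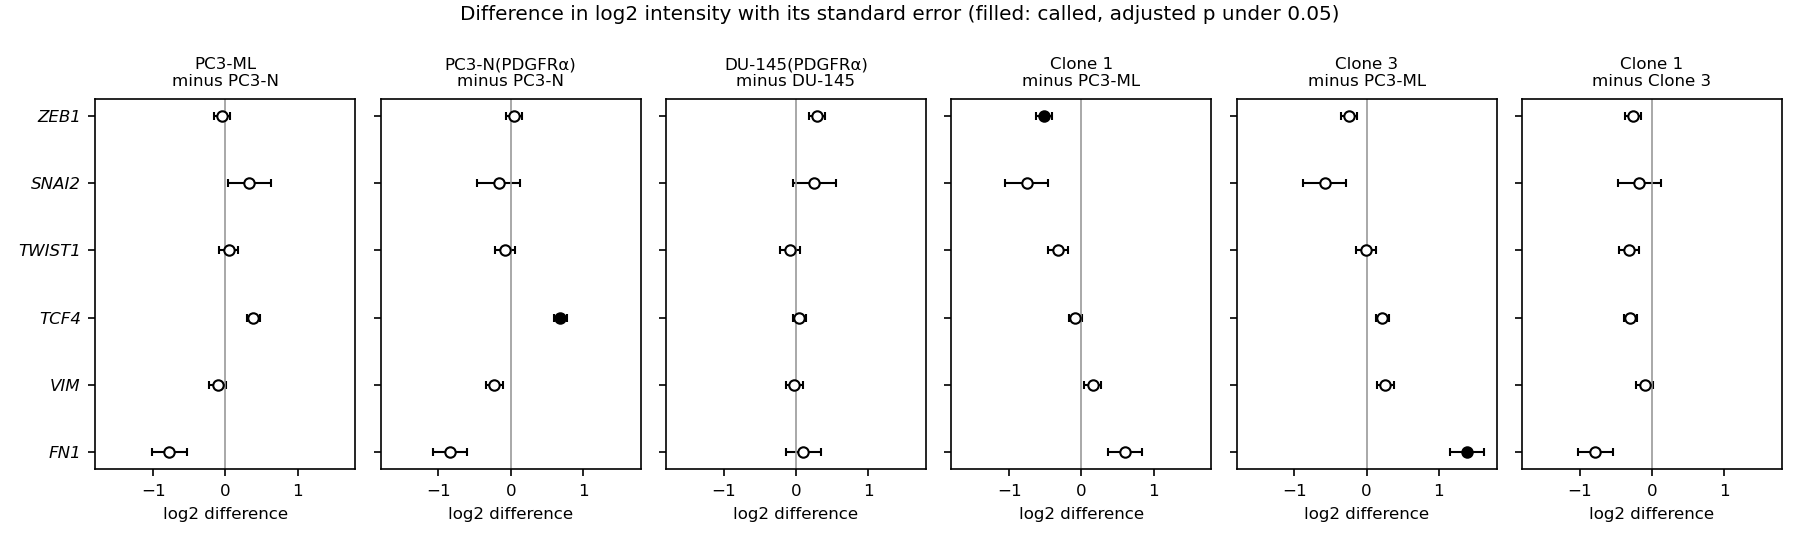
Difference in log2 intensity, with its standard error, of ZEB1, SNAI2, TWIST1, TCF4, VIM and FN1 in 6 pairwise comparisons of lines. TCF4 stood near the floor in both DU-145 lines. Filled points were called (adjusted p under 0.05 in limma). The filled points are TCF4 in PC3-N(PDGFRα), ZEB1 in Clone 1 and FN1 in Clone 3.

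Clone 1 had less ZEB1 than its parent. It measured 61.0 and 63.7 against 92.3 and 85.9 in PC3-ML, a decrease of 0.51 on the log2 scale, or 1.43-fold (SE 0.11, adjusted p = 0.0130 in limma). It was the 1 member called, where 13.8% of all genes were. SNAI2 (-0.76, SE 0.30, adjusted p = 0.134), TWIST1 (-0.33, SE 0.14, adjusted p = 0.161) and FN1 (0.60, SE 0.24, adjusted p = 0.140) were not called. The passages of 7 members, namely ZEB1, ZEB2, SNAI2, TWIST1, VIM, FN1 and OVOL1, did not overlap those of the parent, as for 57.4% of all genes. TCF4 differed by -0.08 and VIM by 0.16. The ZEB1 call was lost without PC3-ML replicate 1 (adjusted p = 0.0994 in limma), Clone 1 replicate 1 (0.0774) or Clone 1 replicate 2 (0.0583). With dim genes left out, SNAI2 (0.0366) and FN1 (0.0445) were called too in limma, where 2613 of 9186 genes were called.

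Some epithelial genes were higher in the same clone, among them KRT18, EPCAM, DSP and KRT8. Of 30 measured targets of ZEB, SNAI and GRHL proteins, 6 rose, none fell and 24 were not called (20% of the list called, against 13.8% of all genes, and a median of 0.12 against -0.02), and the number that rose was 4 to 7 over the other settings and omissions. The keratin gene KRT18 measured 201 and 309 against 36.3 and 80.8 in PC3-ML (2.20), the adhesion gene EPCAM 1747 and 1522 against 450.0 and 483 (1.81), DSP 231 and 257 against 94.5 and 101 (1.32) and KRT8 403 and 405 against 207 and 220.2 (0.92). The largest adjusted p of these 4 was 0.00768 in limma, for KRT18, a call lost without PC3-ML replicate 1 or Clone 1 replicate 2. CDH1 was not among them, at 28.3 and 32.3 against 26.9 and 25.0. KRT7, the 1 called of 16 other intermediate filament genes, rose by 2.06.

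Other listed genes of Clone 1 moved either way. Among epithelial transcription factors EHF rose (0.60), and FOXA2 (-0.78) and TFAP2C (-0.43) fell, of 12 measured. The calls of TFAP2C and TNC were lost under 5 of 11 alternatives each. Among mesenchymal markers TNC, which encodes the matrix protein tenascin C, rose by 0.51 and the collagen gene COL6A1 fell by 0.93, of 24. SMAD3 rose by 0.48, the 1 of 17 other regulators called. PDGFRA, at 31.03 and 26.5 against 104 and 155, fell by 2.15, and PECAM1 rose by 1.03; their part in the values was not tested.

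Clone 3 had more FN1 than PC3-ML. It measured 452 and 485 against 153 and 209, an increase of 1.39 on the log2 scale, or 2.61-fold (SE 0.24, adjusted p = 0.00758 in limma). It was the 1 member called, where 8.11% of all genes were. ZEB1 (-0.25), SNAI2 (-0.58), TCF4 (0.22) and VIM (0.26) were not called, with adjusted p between 0.197 for TCF4 and 0.315 for SNAI2. The FN1 call was lost without PC3-ML replicate 1, at 1.16 with an adjusted p of 0.0766 in limma.

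In the same clone EHF, an epithelial ETS factor, was at 79.2 and 73.8 against 29.2 and 29.0 (1.39, adjusted p = 3.03e-05 in limma) and FOXA2 fell by 0.51. DSP rose by 1.06, the 1 of 30 epithelial targets called, and TNC rose by 0.60 while FSTL1 fell by 1.16 among the 24 mesenchymal markers. The TNC call was lost without any 1 of the 4 arrays and the FOXA2 call without PC3-ML replicate 1 or either clone array. DSP, EHF and TNC rose and FOXA2 fell in both clones, whose comparisons share the PC3-ML arrays.

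With the clones set against each other no member was called, where 10.5% of all genes were called and 4 members had an unadjusted p under 0.05 in limma, as had 20.5% of all genes. In Clone 1 relative to Clone 3, TCF4 was -0.30 (SE 0.09, adjusted p = 0.0637), FN1 -0.78 (SE 0.24, adjusted p = 0.0711), ZEB1 -0.27 (SE 0.11, adjusted p = 0.204) and TWIST1 -0.32 (SE 0.14, adjusted p = 0.217). The passages of 7 members did not overlap, as for 51.4% of all genes. FN1 was called with dim genes left out (adjusted p = 0.0156 in limma), where 1969 of 9186 genes were. It was also called with a variance trend and robust moderation (0.0273 in limma), where 1891 of 18372 genes were. EPCAM (1.85), MAL2 (-0.89), KRT8 (0.75) and PATJ (0.70), a polarity gene, were the epithelial targets called, 4 of 30. Of 24 mesenchymal markers, FSTL1 was called higher in Clone 1 than in Clone 3, and COL6A1 and CDH2 lower. Among 12 epithelial transcription factors EHF was called, lower in Clone 1. SMAD3 of 17 other regulators and KRT7 of 16 other intermediate filament genes were called higher. The CDH2 call was lost under 6 of 11 alternatives and the SMAD3 call under 2. The MAL2 call was lost without any 1 of the 4 arrays, and the KRT8 call without either Clone 1 array or Clone 3 replicate 1.

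For the 3 members whose line means spanned 1 or more, the genes nearest in pattern over the 7 lines were found among genes with the same minimum span, by the root mean square difference of centred log2 line means. This is a description over 7 related lines. For SNAI2 they were CAPRIN2 (0.24), CNKSR2 (0.24) and TMC7 (0.25). For TCF4 they were ZNF320, QSER1 and NDUFAF1 (0.12 each), and for FN1 the secreted guidance gene SLIT2 (0.34), the protease inhibitor gene SERPINE2 and the neurofilament gene NEFL (0.37 each). QSER1 shared with TCF4 a lower mean in PC3-N (241, geometric mean of both arrays) than in PC3-N(PDGFRα) (345) and lower means still in the DU-145 lines (171 in the parent and 155 with the receptor).

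**Figure D4:**
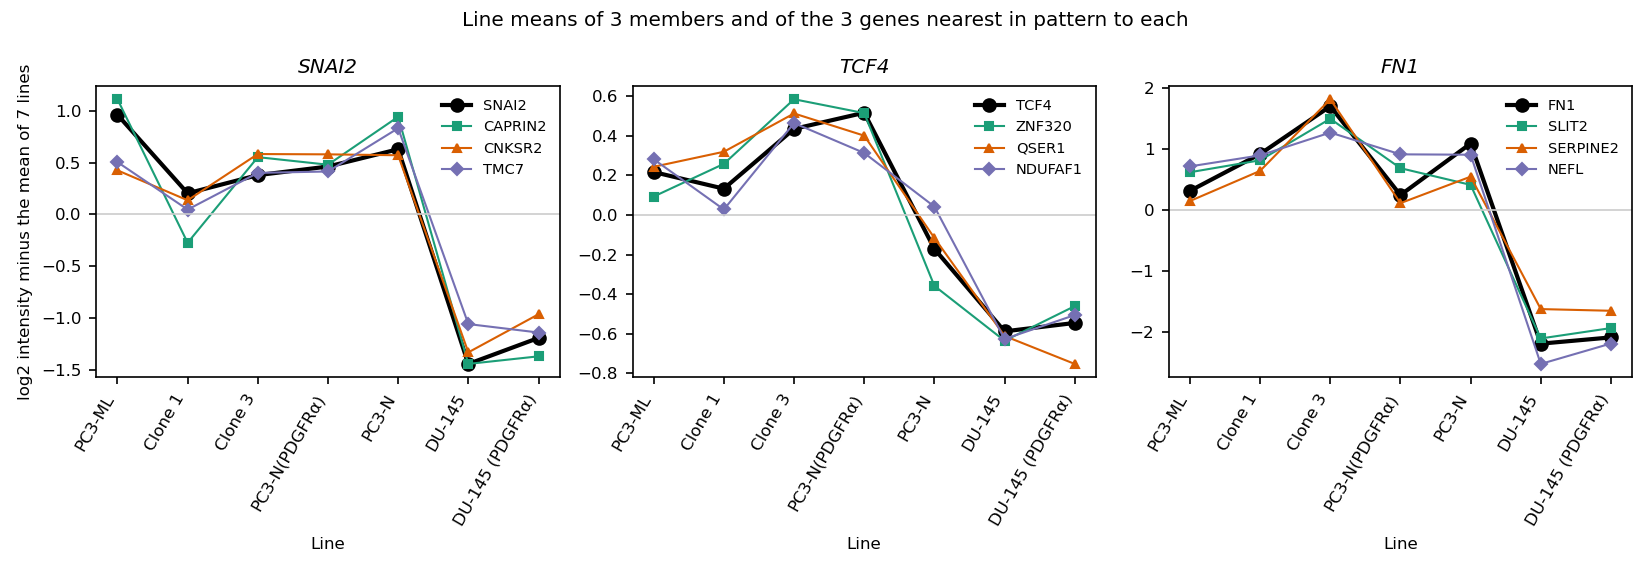
Line means of log2 intensity minus the mean of the 7 lines for SNAI2, TCF4 and FN1 (black) and for the 3 genes nearest in pattern to each (coloured), with lines of 1 gene joined for legibility. The SNAI2 and FN1 sets drop in both DU-145 lines, and TCF4 itself steps down from the bone-metastatic lines through PC3-N to the DU-145 lines; of its set, NDUFAF1 is about level in Clone 1 and PC3-N.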

How the data were processed

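The deposited values were intensities processed by the authors with RMA, per the submitters' processing notes, which corrects background, normalizes between arrays and summarises probe sets. Its version is not given in the sources used here. A linear scale was read from the values, and these were converted to log2 with no pseudocount and no filter. Of 28829 probe sets, 19291 carried 1 symbol; the brightest stood for each of 682 genes with several. Line means were fitted over 14 arrays with limma 3.58.1 in R 4.3.3, with 7 residual degrees of freedom; contrasts of origin and of the bone label used the 7 line means. The code was tested on simulated data. The members and gene lists were chosen with earlier results of these data known. All members are named; of each list, up to 4 called genes with the largest change in a comparison are named. Alternatives were quantile normalization, median centring, a pseudocount of 16, a filter on dim genes, mean probe sets, a variance trend with robust moderation, a replicate block, and omission of arrays or lines. The number of arrays limits the precision.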

Additional observations from a re-analysis of the deposited data

Results flagged for a closer look

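The difference of each overexpressing line from its parent was compared between PC3-N and DU-145, and limma called 2 of the listed genes. PDGFRA was at a higher level in PC3-N(PDGFRα) than in DU-145 (PDGFRα), and each is a single derived line. Receptor level, background and derivation therefore cannot be told apart. For TGFBI the difference was 1.13 on the log2 scale (SE 0.12, adjusted p = 0.00430): it fell by 1.03 in DU-145 and stood near the floor, at 25.4 to 28.8, in PC3-N and PC3-N(PDGFRα), where a fall could not be seen, so a different receptor effect is not shown. For DSP it was 0.85 (SE 0.14, adjusted p = 0.0344), a call lost under 8 of 15 alternatives. Of 20 groups of line means of the members, none held a line that stood apart by Dixon's test, where chance gives about 1 in 20.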

How the results depend on the processing

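Of 1364 values of members under the alternatives, 1333 kept their side of the threshold, 23 crossed it upward, 8 dropped below it and none that was called changed sign; 115 values that were not called changed sign. The number of members called in the bone-metastatic contrast was 0. It was 3 (SNAI2, TCF4 and FN1) in the 14-array fit, with or without its replicate block, where 5559 of 18372 genes were called. Without the line PC3-N it was also 3, where 2536 genes were called. That setting compares bone-metastatic lines that are all of PC3 origin with the DU-145 lines, so it equals a contrast of origin. Within the PC3 lines 1 member was called, where 678 genes were. With dim genes left out, 6 members remained among 9186 genes. Of these members 2 were called in PC3-N(PDGFRα), where 462 genes were, 3 in Clone 1, where 2613 were, and 1 between the clones, where 1969 were. A variance trend with robust moderation gave 1 member between the clones, among 1891 genes called. For the difference between the overexpression comparisons in PC3-N and DU-145 it gave 1, among 135. Quantile normalization gave 1 for that difference, among 94 genes called. Leaving out single arrays gave 0 to 1 members for PC3-ML against PC3-N, 0 to 2 for PC3-N(PDGFRα), 0 to 1 for Clone 1 and 0 to 1 for Clone 3; the lone array was then assumed to vary like the other lines. The origin contrast, with 3 members called, gave 2 to 4. What moved the other counts was not tested.

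Whether same-numbered arrays share more than a number was not settled. Their deviations correlated at -0.20 to 0.24, over 0.1 in 6 of 21 pairs, and other pairs were negative. PC3-ML was at -0.20 with PC3-N, -0.16 with PC3-N(PDGFRα) and -0.18 with DU-145, but at 0.22 with Clone 1. The replicate block changed no member's call in the 7 comparisons of line pairs. It moved the genes called from 64 to 42 for PC3-ML against PC3-N and from 57 to 10 in DU-145 (PDGFRα). For origin, the 14-array fit called 7137 genes without the block and 7143 with it, against 3241 on the line means. For the bone label the 14-array fit gave 5559 with and without the block, against 0 on the line means. The 14-array fit uses the spread between passages, not between lines. With dim genes left out, PC3-ML against PC3-N gave 103. DU-145 (PDGFRα) gave 20 with a pseudocount and 100 with the variance trend. Quantile normalization lowered the share of calls that were higher in Clone 1 from 65.4% to 53.5%, in Clone 3 from 64.2% to 52.5% and in PC3 lines from 54.5% to 43.3%, and raised it in DU-145 (PDGFRα) from 21.1% to 35.4%. Without 1 array, genes called ranged from 12 to 170 for PC3-ML against PC3-N (64 with all arrays), 71 to 404 for PC3-N(PDGFRα) (405), 15 to 418 for DU-145 (PDGFRα) (57), 26 to 249 for the difference of effects (98), 1213 to 1981 for Clone 1 (2533), 431 to 1233 for Clone 3 (1490) and 1018 to 1123 between the clones (1926). Without a DU-145 line the origin contrast gave 1186 or 1571, and the bone label gave 2536 without PC3-N and 678 within the PC3 lines. Of 70 calls of listed genes, 32 held under every alternative, 38 were lost under at least 1 and none reversed. Genes near the floor cannot show a fall.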
